A study of Mus musculus with 9 samples.

Results

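The genes described here are 34 genes of glucose breakdown, lactate and glucose transport, glycogen metabolism and the hypoxia response, taken by symbol from a deposited table of 25239 genes, in primary mouse cortical astrocytes exposed to hydrogen peroxide. The pups that gave the cortical cells were at postnatal day 4, and the cultures were kept in medium with glucose, sodium pyruvate, horse serum and fetal bovine serum. One group was left untreated, and the other groups received 200 µM hydrogen peroxide for 3 h, were washed, and were harvested 24 h (day 1) or 72 h (day 3) later. Each group had 3 libraries of polyadenylated RNA. The labels give no strain, no harvest time for the untreated controls and no statement that the libraries came from separate cultures, so the p-values rest on a spread among libraries that may be technical. Of the 34 genes, 15 encode glycolytic enzymes, 2 encode enzymes that set the level of a phosphofructokinase activator, 4 act at the lactate and pyruvate branch, 3 are transporters, 6 belong to the HIF (hypoxia-inducible factor) pathway and 4 to glycogen metabolism.

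Glycolysis breaks glucose down to pyruvate in the cytosol, first spending ATP on phosphorylated sugars and then recovering it in the steps from Gapdh to pyruvate kinase. Astrocytes are known for a high glycolytic rate, for releasing lactate, and for holding nearly all of the glycogen of the brain. HIF transcription factors pair an oxygen-regulated alpha subunit with a stable partner, and prolyl hydroxylases of the Egln family mark the alpha subunit for destruction when oxygen is present. Many glycolytic genes are known HIF targets.

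Levels are FPKM (sequenced fragments relative to the length of the gene and to the library total) as deposited, so levels of different genes are per length and can be set side by side. Libraries were rescaled by their median ratio, and fold changes come from log2(FPKM + 0.1). Library totals worked out from the FPKM ran from 23032594 to 38414668 reads. Between 93 and 209 reads per library stood behind Slc16a3, the lowest of the 33 members tested, and the others had at least 205 in every library. The 9 astrocyte markers examined, of which Aldoc is itself a member, were above 0 in every library. Their summed level was 2772 to 2841 FPKM in control, 2049 to 2312 on day 1 and 2546 to 2581 on day 3. Markers of other cells were present too and moved with the groups. The sum of 10 microglia markers was 247 to 268 FPKM in control, 95.5 to 103 on day 1 and 201 to 261 on day 3. For 10 oligodendrocyte lineage markers it was 652 to 683, 416 to 452 and 549 to 580, and for 8 fibroblast markers 805 to 869, 1806 to 1946 and 953 to 1167. Col1a1 (374 to 414 FPKM in control and 995 to 1084 on day 1) and Col1a2 (296 to 320 and 703 to 754) held most of the fibroblast sum, and of the 7 fibroblast markers tested 4 were higher on day 1 and 3 lower. On day 1, 6 of 9 astrocyte markers were lower and 2 higher, 8 of 9 microglia markers lower and 1 higher, all 10 oligodendrocyte lineage markers lower, and 3 of 4 neuron markers higher. The sum of 7 neuron markers, of which Eno2 is a member, was 109.5 to 110 in control, 117 to 121 on day 1 and 118 on day 3. Tubb3 (36.9 to 42.1 FPKM), Map2 (31.6 to 34.3) and Stmn2 (29.8 to 37.4) held most of that sum. Rbfox3, Snap25 and Syt1 were only at 0.0172 to 0.426 FPKM and were not tested. The 6 endothelial markers summed to 12.7 to 15.9 FPKM, most of it Cdh5 (10.5 to 13.8). Pecam1 was at 0.0297 to 0.156 FPKM, and Cldn5 was at 0 in every library but control replicate 2 (0.0184). The share of reads on Rn45s, the ribosomal RNA precursor, was 9.41% to 11.9% in control, 7.67% to 9.36% on day 1 and 9.15% to 11.1% on day 3. The part of these shifts in the members' values was not tested, and in bulk RNA fewer cells of a type cannot be told apart from less RNA per cell.

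On day 1 the members split almost evenly. Both directions were called within the HIF pathway, between Ldha and Ldhb, and between Pfkfb3 and Pfkfb4, where the Pfkfb3 call depended on the settings. The phosphofructokinase genes all fell. In the hexokinase, aldolase, enolase and monocarboxylate transporter families, only Hk2, Aldoc, Eno1 and Slc16a3 were called. The calls for Eno1 and Slc16a3 also depended on the settings. Of 33 members tested, 14 rose above control and 13 fell below it (limma, adjusted p under 0.05 by Benjamini-Hochberg, 12611 genes tested). That is 81.8% of the members, beside 62.2% of all genes (31.1% higher and 31.1% lower). The changes were small: the median size on the log2 scale was 0.25 for the members and 0.19 for all genes, and 10 members were called with the higher group at least 25% above the lower one, where 26.9% of all genes were. The median log2 change of the members was 0.03 and that of all genes -0.0014. For 28 of the 33 members the control and day 1 values did not overlap, beside 66.1% of all genes. With quantile normalization, which lowered genes of high level, 10 members were higher and 16 lower. Under that setting 3918 of the 12611 genes tested were higher and 3816 lower.

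**Figure D1:**
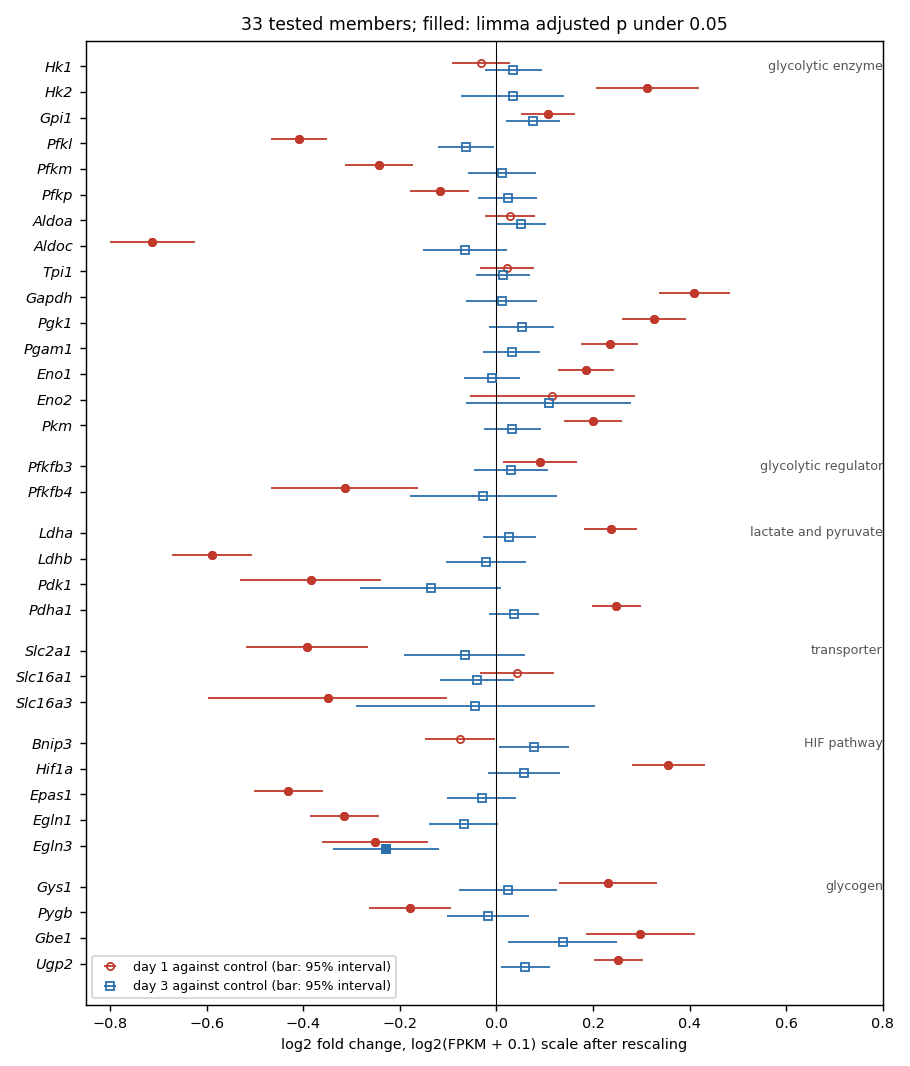
Log2 fold change of the 33 tested members (rows, by role) against control on day 1 (red circles) and day 3 (blue squares), with 95% intervals from limma, and with filled symbols where the adjusted p is under 0.05. Day 1 has 14 filled symbols to the right of 0 and 13 to the left, and day 3 has 1, at Egln3. With quantile normalization Gpi1, Aldoa, Tpi1 and Slc16a1 change side on day 1, as do Aldoa and Tpi1 from FPKM as deposited.

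The early, ATP-consuming steps of glycolysis went in both directions on day 1. Hexokinases trap glucose in the cell: Hk2, the inducible form, rose 1.24-fold (95% interval 1.15 to 1.34, limma adjusted p = 0.000222), while Hk1, the main form here, was at 36.1 ± 0.506 FPKM (SD, n = 3) in control and 34.5 ± 0.0397 on day 1 (adjusted p = 0.312), although quantile normalization gave a fall (log2 fold change -0.08, adjusted p = 0.0305). Hk2 was at 6.69, 7.58 and 7.33 FPKM in the control libraries, 8.55, 8.61 and 9.12 on day 1, and 7.40, 7.17 and 7.28 on day 3. All day 1 values of Hk2 lay above all others. The level of both hexokinases together was 43.3 FPKM in control and on day 1. Gpi1, which isomerises the hexokinase product, rose 1.08-fold, a direction that turned with quantile normalization (log2 fold change -0.03, adjusted p = 0.329).

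All 3 genes of phosphofructokinase, the main control point of the pathway, fell on day 1, under each scaling tried. Pfkl was at 24.0, 24.0 and 24.4 FPKM in the control libraries, 17.9, 18.2 and 17.2 on day 1, and 23.0, 22.6 and 22.9 on day 3. The day 1 values of Pfkl stood apart below the rest, 1.33-fold lower than control (95% interval 1.28 to 1.38, adjusted p = 3.43e-07). Pfkm, the most abundant of the 3, was at 99.2, 104 and 106 FPKM in control, 87.3, 86.9 and 81.5 on day 1, and 101, 105 and 102 on day 3, a 1.18-fold fall on day 1 (adjusted p = 6.55e-05). Pfkp was at 82.3, 83.7 and 85.8 FPKM in control, 76.4, 78.3 and 72.3 on day 1, and 84.7, 85.0 and 83.3 on day 3, a 1.09-fold fall (adjusted p = 0.00354). In Pfkm and Pfkp too, no day 1 value reached a control value, and day 1 replicate 3 was the lowest. The summed level of the 3 genes was 211 ± 5.48 FPKM in control, 179 ± 6.68 on day 1 and 210 ± 2.37 on day 3.

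The PFKFB enzymes make and remove the small molecule that activates phosphofructokinase. Pfkfb4 fell 1.24-fold on day 1, from 3.39 ± 0.216 to 2.64 ± 0.0838 FPKM (adjusted p = 0.00225). Pfkfb3, the more abundant of the pair at 34.6 ± 1.56 FPKM in control, was 1.06-fold higher on day 1 (adjusted p = 0.0423). That call for Pfkfb3 was lost from FPKM as deposited (adjusted p = 0.229), with quantile normalization (0.364) and with a filter at 5 FPKM (0.0985). It was also lost without control replicates 1 and 3 (0.155 and 0.0836), day 1 replicates 1 and 2 (0.0842 and 0.131) and day 3 replicate 1 (0.0537), each left out singly.

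Aldolase splits the phosphorylated sugar into triose phosphates, and its brain form had the largest change of the 33 members tested. Aldoc, the aldolase of astrocytes in brain, was at 504, 492 and 522 FPKM in the control libraries, 321, 303 and 283 on day 1, and 479, 468 and 488 on day 3. The day 1 values were far below all others, 1.64-fold under control (95% interval 1.54 to 1.74, adjusted p = 1.39e-07). Aldoa, the broadly expressed form, was at 409, 419 and 420 FPKM in control, 418, 415 and 411 on day 1, and 423, 428 and 427 on day 3, with overlapping values and no call on day 1 (adjusted p = 0.314), although quantile normalization gave a fall (log2 fold change -0.12, adjusted p = 0.00269). Aldoc took 54.9% ± 0.765 of the aldolase FPKM in control, 42.1% ± 1.33 on day 1 and 52.9% ± 0.581 on day 3. Its share on both days lay outside the control values, and the exact two-sided permutation test gave p = 0.10 for each, the smallest that 3 against 3 libraries allow (0.24 adjusted over the 12 share comparisons made). Tpi1, which interconverts the triose phosphates, was at 149 ± 0.850 FPKM in untreated cells and 148 ± 2.99 FPKM on day 1 (adjusted p = 0.458), and with quantile normalization it was lower (log2 fold change -0.13, adjusted p = 0.00372).

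In the later steps, where ATP is recovered, Gapdh, Pgk1, Pgam1, Eno1 and Pkm were higher on day 1 and Eno2 was not called. Eno1 and Pkm lost the call with quantile normalization (adjusted p = 0.136 and 0.313). Gapdh, which oxidises the triose phosphate, was at 486, 503 and 514 FPKM in the control libraries, 645, 639 and 670 on day 1, and 510, 478 and 511 on day 3. It rose 1.33-fold (95% interval 1.26 to 1.40, adjusted p = 1.93e-06), with no overlap between control and day 1, and it stayed higher with quantile normalization (log2 fold change 0.17, adjusted p = 0.00117). Pgk1, which makes the first ATP of the payoff phase, was at 149, 157 and 152 FPKM in control, 192, 194 and 177 on day 1, and 161, 152 and 157 on day 3. Day 1 was 1.253-fold above control (95% interval 1.197 to 1.31, adjusted p = 5.26e-06), and the lowest day 1 value, in replicate 3, exceeded every other value. Pgam1, a mutase, rose 1.18-fold from 54.3 ± 1.37 to 62.5 ± 0.897 FPKM (adjusted p = 2.35e-05). Eno1, the general enolase, went from 457 ± 5.74 to 509 ± 7.97 FPKM (1.14-fold, adjusted p = 0.000116), and Pkm, pyruvate kinase, from 369 ± 7.47 to 414 ± 3.22 FPKM (1.15-fold, adjusted p = 7.84e-05). The table has 1 value per gene, so the forms of pyruvate kinase encoded by Pkm are not separated. Eno2, the neuronal enolase, was at 8.56 ± 0.802 FPKM in untreated cells and 9.07 ± 0.607 FPKM on day 1 (adjusted p = 0.212, or 0.0469 without control replicate 1), and made up 1.84% of the enolase FPKM in control and 1.75% on day 1.

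Several of these genes have near-identical copies elsewhere in the genome, and the sources used here do not say how the counting treated reads that match several places. In the GENCODE M21 transcripts, 9 members had another gene aligned at 95% identity or more over at least 500 bases: 72 such genes for Gapdh, 3 each for Eno1 and Bnip3, 2 each for Pgk1 and Ldha, and 1 each for Gpi1, Pgam1, Pkm and Ldhb. The table lists Eno1b, a copy of Eno1 with 99.5% identity over 1736 bases, at a mean of 0.890 FPKM, and the Gapdh copies Gm5069 and Gm12070 at means of 1.62 and 0.0634 FPKM. The levels of these 9 members are uncertain by what the counting moved between copies.

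**Figure D2:**
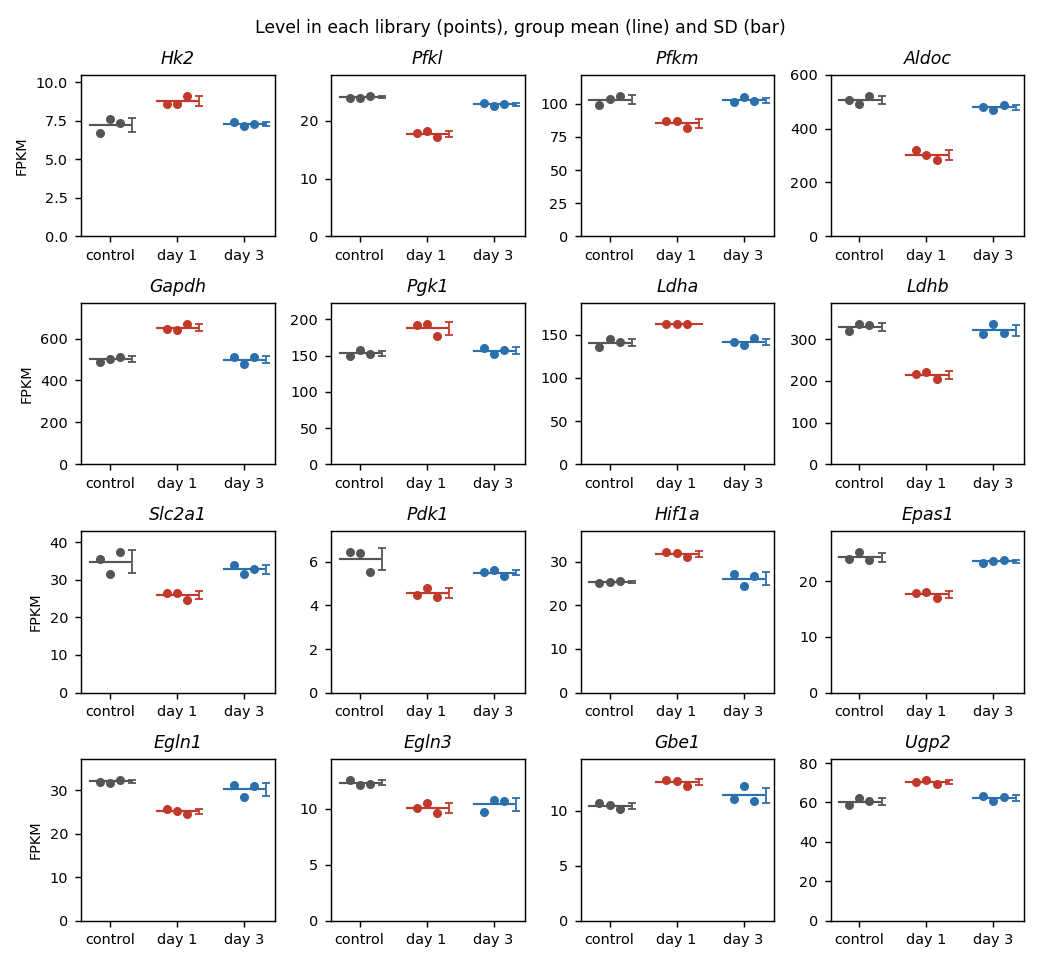
FPKM of 16 members (panels, each from 0) in the 9 libraries, with points for libraries, lines for group means and bars for the SD (n = 3). In each panel the day 1 points lie apart from the control points, and on day 3 most panels are back at the control level, with Egln3 still below it.

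At the lactate branch the 2 subunit genes of lactate dehydrogenase moved in opposite directions on day 1. The subunit of Ldha is the form linked with making lactate from pyruvate, and that of Ldhb the form linked with its use. Ldhb was at 319, 337 and 333 FPKM in the control libraries, 216, 222 and 205 on day 1, and 313, 336 and 315 on day 3. Day 1 was 1.50-fold below control (95% interval 1.42 to 1.59, adjusted p = 3.32e-07), with a wide gap between the groups. Ldha was at 136, 144 and 142 FPKM in control, 162, 163 and 163 on day 1, and 142, 139 and 146 on day 3. It rose 1.18-fold (95% interval 1.13 to 1.22, adjusted p = 1.18e-05) and stayed higher with quantile normalization (log2 fold change 0.08, adjusted p = 0.0107). The share of Ldha in the summed FPKM of both, which does not depend on the scaling between libraries, went from 29.9% ± 0.0686 in control to 43.1% ± 1.02 on day 1 and 30.7% ± 1.28 on day 3. The 3 control shares were 29.9%, 30.0% and 29.9%, and those of day 1 were 42.8%, 42.3% and 44.3% (exact permutation p = 0.10, the smallest possible here). The summed level of both was 471 ± 13.5 FPKM in control, 377 ± 8.68 on day 1 and 463 ± 10.2 on day 3, and Ldhb remained the more abundant subunit in every library.

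**Figure D3:**
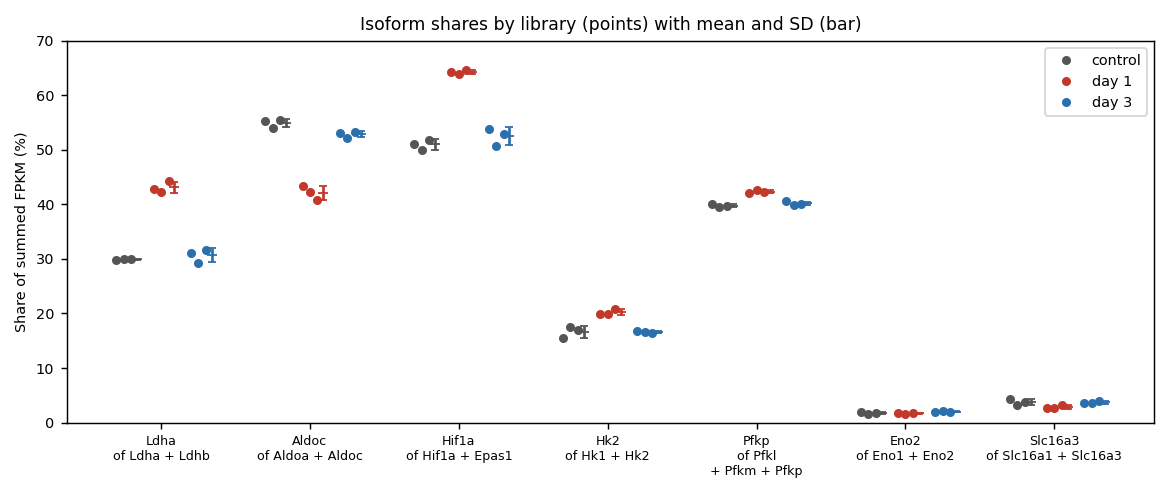
Share of 1 gene in the summed FPKM of its family (percent, points for the 9 libraries, bars for mean ± SD, n = 3). On day 1 the shares of Ldha, Hif1a, Hk2 and Pfkp lie above control and that of Aldoc below it, while those of Eno2 and Slc16a3 overlap with control.

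Among the other families, Hk2 took 16.6% ± 1.07 of hexokinase FPKM in control, 20.2% ± 0.559 on day 1 and 16.6% ± 0.198 on day 3. Pfkp took 39.7% ± 0.254, 42.4% ± 0.312 and 40.2% ± 0.308 of the phosphofructokinase FPKM, since it fell least of the 3. Both shares were outside the control range on day 1 (exact permutation p = 0.10 each) and within or overlapping it on day 3. The share of Eno2 overlapped with control on both days.

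At the entry of pyruvate into mitochondria, Pdha1, the catalytic subunit of pyruvate dehydrogenase, and Pdk1, a kinase that switches that enzyme off, moved in opposite directions on day 1. Pdha1 rose 1.19-fold, from 62.1 ± 0.612 to 72.1 ± 1.29 FPKM (adjusted p = 5.32e-06). Pdk1 was at 6.46, 6.42 and 5.55 FPKM in the control libraries, 4.50, 4.82 and 4.40 on day 1, and 5.55, 5.61 and 5.36 on day 3. Its day 1 values lay below all others, 1.31-fold under control (95% interval 1.18 to 1.44, adjusted p = 0.000459).

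Of the 3 transporters, 2 fell on day 1. Slc2a1, the glucose transporter GLUT1, was at 35.6, 31.4 and 37.4 FPKM in control, 26.4, 26.5 and 24.6 on day 1, and 33.9, 31.6 and 32.9 on day 3. Day 1 was 1.31-fold lower (95% interval 1.20 to 1.43, adjusted p = 0.000140), with no overlap although the control values were spread. Slc16a1, the monocarboxylate transporter MCT1 and by far the more abundant of the lactate carriers here, was at 55.0, 56.5 and 54.0 FPKM in control, 57.3, 57.5 and 52.0 on day 1, and 53.3, 53.3 and 52.5 on day 3. Its groups overlapped on day 1 (adjusted p = 0.306), and it was called higher only without day 1 replicate 3 (0.0445). Slc16a3, the carrier MCT4, was at 2.45, 1.86 and 2.14 FPKM in control, 1.53, 1.59 and 1.75 on day 1, and 2.01, 1.94 and 2.21 on day 3. It fell 1.27-fold (95% interval 1.07 to 1.51, adjusted p = 0.0189), a call lost with quantile normalization (0.125) and without control replicate 1 (0.0793) or day 1 replicate 1 or 2 (0.0617 and 0.0531). Its share of the summed FPKM of both carriers was 3.75% ± 0.539 in control and 2.85% ± 0.360 on day 1, with overlap.

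All 4 glycogen genes changed on day 1. The genes of the building side rose: Ugp2, which makes UDP-glucose, by 1.19-fold from 60.5 ± 1.60 to 70.4 ± 1.03 FPKM (adjusted p = 4.48e-06), Gys1, glycogen synthase, by 1.17-fold from 14.6 ± 0.538 to 16.8 ± 0.813 FPKM (adjusted p = 0.00119), and Gbe1, the branching enzyme, by 1.23-fold from 10.5 ± 0.257 to 12.6 ± 0.274 FPKM (adjusted p = 0.000466). Pygb, the brain form of glycogen phosphorylase, which releases glucose units, fell 1.13-fold from 203 ± 5.52 to 176 ± 11.5 FPKM (log2 fold change -0.18, adjusted p = 0.00196). With quantile normalization the log2 fold change of Pygb was -0.38. Its day 1 values were 184, 181 and 163 FPKM, the lowest in replicate 3, and all lay below the control values of 200, 210 and 201.

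In the HIF pathway the genes of the 2 alpha subunits measured moved in opposite directions on day 1. Hif1a, the subunit tied to glycolytic target genes, was at 25.03, 25.3 and 25.6 FPKM in the control libraries, 32.2, 32.0 and 31.0 on day 1, and 27.1, 24.3 and 26.8 on day 3. It rose 1.28-fold on day 1 (95% interval 1.22 to 1.35, adjusted p = 6.16e-06), above every other value. Epas1, which encodes HIF-2 alpha, was at 24.0, 25.3 and 23.7 FPKM in control, 17.9, 18.0 and 17.0 on day 1, and 23.2, 23.7 and 23.8 on day 3, a fall of 1.35-fold (95% interval 1.28 to 1.42, adjusted p = 1.06e-06) with no overlap. Their sum was 49.6 ± 0.790 FPKM in control and 49.3 ± 1.21 on day 1, and the share of Hif1a in it went from 51.0% ± 0.947 to 64.3% ± 0.343.

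Both prolyl hydroxylase genes among the members fell on day 1. Egln1, the main oxygen sensor of the family, went from 32.0 ± 0.306 to 25.1 ± 0.508 FPKM (1.24-fold, adjusted p = 1.12e-05). Egln3, itself a known HIF target, was at 12.6, 12.2 and 12.2 FPKM in control, 10.1, 10.5 and 9.65 on day 1, and 9.69, 10.7 and 10.7 on day 3. Its day 1 values were 1.19-fold under control (95% interval 1.10 to 1.29, adjusted p = 0.00125). Of the known HIF targets among the HIF members, Bnip3, a mitophagy receptor, was at 22.6 ± 0.195 FPKM in untreated cells and 20.9 ± 1.02 FPKM on day 1 (adjusted p = 0.0639). Bnip3 was called lower from FPKM as deposited (adjusted p = 0.0264), with quantile normalization (0.0334), with a filter at 5 FPKM (0.0228) and without day 1 replicate 2 (0.0144). Ankrd37, an ankyrin repeat protein, was the 1 member under the filter of 1 FPKM, with 11, 22 and 12 reads in the control libraries, 3, 8 and 4 on day 1, and 15, 14 and 11 on day 3. These are 0.402, 0.634 and 0.421 FPKM, then 0.140, 0.318 and 0.192, then 0.543, 0.423 and 0.331, so its day 1 values were the lowest. In a fit with no filter the log2 fold change of Ankrd37 on day 1 was -0.87 with a 95% interval of -1.43 to -0.31 (adjusted p = 0.0182).

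The HIF complex is known to bind DNA at ACGTG or GCGTG, and both words were searched on both strands in the RefSeq promoter windows of GRCm38.p6, which run from 250 bases before to 50 after a start site and were found for 33 of the 34 members. ACGTG was in a window of 21 members (63.6%), beside 29.3% of the tested genes that have a window and 19.6% of all windows, and GCGTG in 21 members (63.6%), beside 56.6% and 32.4%. Of the members higher on day 1, 9 of 14 had ACGTG, and of those lower with a window, 7 of 12 did. GCGTG was in 7 of the 14 higher and 10 of the 12 lower members. Either word was in 11 of the 14 and in all 12, beside 68.0% of the tested genes that have a window. Many members were studied as HIF targets, so the members are not an independent sample of promoters, and a match is a description, not a binding site. The windows of 5 members are shown because they include genes with the same word that moved in opposite directions (Ldha and Pgk1 higher, Slc2a1 and Egln3 lower), the opposed subunit gene Ldhb, and the member still lower on day 3. Each is given in its gene's direction, with ACGTG or its reverse complement CACGT in capitals. They lie at chr7:46845554-46845853 (Ldha, plus strand), chr6:142507908-142508207 (Ldhb, minus strand), chrX:106186850-106187149 (Pgk1, plus strand), chr4:119108495-119108794 (Slc2a1, plus strand) and chr12:54203825-54204124 (Egln3, minus strand). Ldha has 3 separate stretches, beginning at -145, -48 and -34 with the start site counted as 0, of which the first and second are CACGTG, which reads the same on both strands and so holds both ACGTG and CACGT. Pgk1 has 2, at -150 and -131, Slc2a1 has 1 at -36, Egln3 has 1 at -229, and Ldhb has no ACGTG in this window. The other word, GCGTG, is left in lower case. On either strand it has 2 stretches in the Ldha window and 1 each in those of Ldhb and Slc2a1, and it is absent from those of Pgk1 and Egln3.
Ldha: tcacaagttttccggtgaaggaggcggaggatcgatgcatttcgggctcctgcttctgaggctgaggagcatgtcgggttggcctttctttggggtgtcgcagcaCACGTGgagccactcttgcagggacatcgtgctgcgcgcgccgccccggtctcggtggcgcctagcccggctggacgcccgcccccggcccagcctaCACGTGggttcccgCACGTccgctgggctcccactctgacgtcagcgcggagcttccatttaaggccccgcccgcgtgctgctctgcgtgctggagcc
Ldhb: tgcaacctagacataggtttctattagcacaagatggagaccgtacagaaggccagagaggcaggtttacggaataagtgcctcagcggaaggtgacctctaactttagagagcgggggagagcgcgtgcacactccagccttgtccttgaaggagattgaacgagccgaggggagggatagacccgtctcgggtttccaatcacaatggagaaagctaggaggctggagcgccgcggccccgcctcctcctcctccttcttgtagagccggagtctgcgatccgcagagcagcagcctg
Pgk1: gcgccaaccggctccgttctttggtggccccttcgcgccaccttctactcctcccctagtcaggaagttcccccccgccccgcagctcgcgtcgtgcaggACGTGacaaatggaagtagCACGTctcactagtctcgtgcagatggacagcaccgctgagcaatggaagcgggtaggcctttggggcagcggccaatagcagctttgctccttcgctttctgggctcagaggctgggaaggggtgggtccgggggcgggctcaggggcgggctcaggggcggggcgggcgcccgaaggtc
Slc2a1: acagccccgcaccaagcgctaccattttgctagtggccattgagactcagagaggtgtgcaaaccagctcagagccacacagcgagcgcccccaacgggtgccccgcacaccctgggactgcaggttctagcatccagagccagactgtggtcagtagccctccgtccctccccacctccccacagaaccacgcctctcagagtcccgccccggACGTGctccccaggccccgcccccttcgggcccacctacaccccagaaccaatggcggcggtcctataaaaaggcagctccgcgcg
Egln3: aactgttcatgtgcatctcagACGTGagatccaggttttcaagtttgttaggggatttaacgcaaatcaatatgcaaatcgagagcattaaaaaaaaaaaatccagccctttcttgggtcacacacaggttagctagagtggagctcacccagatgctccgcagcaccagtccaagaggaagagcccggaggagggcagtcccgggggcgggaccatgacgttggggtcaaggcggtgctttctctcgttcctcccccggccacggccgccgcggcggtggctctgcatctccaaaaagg

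The other genes of these pathways, from lists chosen with earlier results of these data known, also went both ways on day 1. Over the 8 lists, 114 genes were tested, and 47 rose and 39 fell (41.2% and 34.2%, beside 31.1% and 31.1% of all genes). The counts of a single list are small, and several lie near those shares. Of 15 other glycolysis genes tested, 6 rose and 5 fell. Bpgm and Minpp1, which act on bisphosphoglycerate, rose 1.37-fold and 1.33-fold, while Hk3, a hexokinase of myeloid cells, fell 3.52-fold from 2.59 ± 0.300 to 0.656 ± 0.149 FPKM, and Gapdhs, the sperm form of Gapdh, fell 1.38-fold. Microglia markers fell with Hk3 (8 of 9 tested lower, 1 higher, median log2 change -1.39); their part in its fall was not tested. Of 13 other genes of glucose and lactate transport, 3 rose and 4 fell: the glucose-responsive arrestin Arrdc4 (1.37-fold) and the neuronal glucose transporter Slc2a3 (1.34-fold) rose, and the insulin-responsive transporter Slc2a4 fell 2.28-fold from 3.97 ± 0.175 to 1.64 ± 0.0704 FPKM. Ldhd, the D-lactate dehydrogenase, fell 1.30-fold (adjusted p = 0.0289), a call lost without control replicate 1 or 3 (0.0691 and 0.0926), without day 1 replicate 1 or 3 (0.0621 and 0.105), with quantile normalization (0.157) and with no filter (0.0572).

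Of 15 genes of pyruvate dehydrogenase and pyruvate entry, 7 rose and 6 fell on day 1. Another kinase of that enzyme, Pdk3, rose 1.41-fold from 11.1 ± 0.490 to 15.3 ± 0.184 FPKM, opposite to Pdk1. Malic enzyme Me1 rose by 0.32 on the log2 scale, and pyruvate carboxylase Pcx, by which astrocytes replenish the citric acid cycle, fell 1.31-fold from 53.4 ± 0.867 to 39.8 ± 2.17 FPKM, with the phosphatase gene Pdp1 1.23-fold lower. Of 19 other glycogen genes, 7 rose and 8 fell. Stbd1, a glycogen-binding protein, and Gyg, glycogenin, rose 1.62-fold and 1.28-fold, and Phkg1, a subunit of phosphorylase kinase, and Ppp1r3e, a targeting subunit of protein phosphatase, fell 1.64-fold and 1.40-fold.

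Of 14 other regulators of HIF, 6 rose and 5 fell on day 1. Cul2, a scaffold of the ligase that removes HIF alpha, and Cited2, which competes with HIF for a coactivator, rose 1.31-fold and 1.23-fold, while Egln2, the remaining prolyl hydroxylase of the family, and Vhl, the substrate receptor of that ligase, fell 1.23-fold and 1.12-fold. With Egln1 and Egln3, all 3 prolyl hydroxylase genes were lower. Of 25 other HIF targets, 9 rose and 8 fell. Plod2, a collagen lysyl hydroxylase, rose 2.08-fold from 44.2 ± 0.308 to 90.0 ± 1.54 FPKM and Stc2, a secreted stanniocalcin, 1.78-fold, while Selenbp1, a selenium-binding protein, and Adm, the vasodilator adrenomedullin, fell 1.91-fold and 1.51-fold. In the pentose phosphate pathway, which branches from the hexokinase product and makes NADPH, 8 of 10 genes rose and 1 fell (beside 31.1% and 31.1% of all genes): its first enzyme G6pdx rose 1.41-fold from 67.7 ± 1.80 to 93.4 ± 0.866 FPKM, Prps2 rose 1.31-fold, and Rpia fell 1.35-fold. Of 3 gluconeogenesis genes tested, Pck2, the mitochondrial carboxykinase, rose 1.61-fold, and Slc37a4 and G6pc3 fell 1.23-fold and 1.11-fold. The median log2 change was 0.22 for the pentose phosphate list and between -0.16 and 0.06 for the other 7 lists, beside -0.0014 for all genes.

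On day 3 nearly all members were back near control. Of the 33 tested, 1 was lower and none higher (limma adjusted p under 0.05), or 3.03%, beside 13.8% of all genes (7.37% higher and 6.45% lower). An unadjusted limma p under 0.05 was found for 6 of the 33 members, beside 3542 of the 12611 genes tested. Egln3 was the one called, at 10.4 ± 0.604 FPKM, 1.17-fold under control (95% interval 1.09 to 1.27, adjusted p = 0.0133), and it did not pass without control replicate 1 (0.0527). For 29 of the 33 members the log2 difference from control was under 0.1 in size, and the median size was 0.04, beside 0.07 over all genes. With that median, most of all genes were under 0.1 too. None of the members was called with a difference of at least 25%, where 4.5% of all genes were. The day 3 and control values of 9 members did not overlap, beside 30.3% of all genes. Apart from Egln3, leaving out 1 library or using the recovered reads brought 4 other members past the threshold on day 3: Hif1a was higher without day 3 replicate 2 (adjusted p = 0.0475), Slc2a1 was lower without control replicate 2 (0.0377), Pdk1 was lower without control replicate 3 (0.0386), and Gpi1 was higher with limma-voom on the recovered reads (0.0408). A p over the threshold does not show that a level equals that of control: the day 3 interval of the ratio to control was 0.899 to 1.02 for Aldoc and 0.930 to 1.04 for Ldhb.

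On day 3, 9 of the 114 other genes of these pathways were called above control and 6 below it (13.2%, beside 13.8% of all genes), a share near that of all genes. G6pdx was 1.24-fold higher, at 83.4 ± 4.01 FPKM, Prps2 1.14-fold, Plod2 1.23-fold at 53.7 ± 2.97 FPKM, P4ha2, a collagen prolyl hydroxylase, 1.23-fold, Pgm2, a phosphosugar mutase, 1.15-fold, Me1 1.11-fold, and Emb, a partner protein of lactate carriers, 1.13-fold. Pcx was 1.15-fold lower, Slc2a4 1.22-fold, Selenbp1 1.28-fold, Ndrg1 1.10-fold and Vhl 1.10-fold. Calls on day 3 were lost for Me1 from FPKM as deposited (adjusted p = 0.0535) and without day 3 replicate 1 or 3 (0.0597 and 0.0598). The call for Slc2a4 was lost without control replicate 1 (0.0604) or day 3 replicate 1 or 3 (0.0529 and 0.0598). Ndrg1 did not pass without control replicate 1 or 2 (0.0727 and 0.0531) or day 3 replicate 1 or 3 (0.0615 and 0.0757), and Selenbp1 not without control replicate 1 or 2 (0.110 and 0.0770) or any day 3 replicate (0.0913, 0.0504 and 0.0974). Vhl did not pass without any control replicate (0.0823, 0.124 and 0.0798). It also missed without day 1 replicate 1 (0.0507) and without either of day 3 replicates 1 and 2 (0.112 and 0.109), as well as with the replicate block (0.0613), from FPKM as deposited (0.0598) and with no filter (0.0652).

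Between the days, 13 members were higher on day 3 than on day 1 and 12 were lower (75.8%, beside 56.2% of all genes, 27.9% higher and 28.4% lower), and the values of 27 did not overlap, beside 61.8% of all genes. Of the 14 members higher on day 1 than in control, 12 were lower on day 3 than on day 1, and of the 13 lower on day 1, 12 were higher on day 3. The comparisons share the day 1 libraries and are not independent. The same counts over all genes called on day 1 were not made, so this turn is not shown to be particular to the members. The remaining 3 members called on day 1 were Gpi1, Pfkfb3 and Egln3. Egln3 was at 10.1 ± 0.446 FPKM on day 1 and 10.4 ± 0.604 on day 3 (adjusted p = 0.719), and Gpi1 went from 145 ± 2.23 to 143 ± 1.98 FPKM (adjusted p = 0.321), although with quantile normalization it was higher on day 3 than on day 1 (log2 fold change 0.09, adjusted p = 0.0122). Bnip3 was the 1 member not called on day 1 that was called between the days, 1.11-fold higher on day 3 (adjusted p = 0.00235). Between the days, Slc16a3 did not pass without either of day 1 replicates 1 and 2 (adjusted p = 0.111 and 0.0950) or any day 3 replicate (0.0640, 0.0558 and 0.119), nor with quantile normalization (0.151) or with no filter (0.0720), nor did Gbe1 without day 1 replicate 1 (0.0566) or day 3 replicate 1 or 3 (0.0718 and 0.0814). Hk1, at an adjusted p of 0.0523 between the days, passed under 6 alternatives (0.00859 to 0.0493): quantile normalization, FPKM as deposited, a filter at 5 FPKM, limma-voom, the 6 libraries compared alone, and leaving out control replicate 1. Slc16a1 (0.0617) passed with limma-voom (0.0263), with the replicate block (0.0203) and without day 1 replicate 3 (0.00721). With quantile normalization Aldoa (log2 fold change 0.15, adjusted p = 0.000894) and Tpi1 (0.12, adjusted p = 0.00488) were higher on day 3 than on day 1.

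The scaling between libraries mattered most for the abundant glycolytic genes. Quantile normalization moved the day 1 log2 fold change by a median of -0.15 for the 105 tested genes over 300 FPKM, of -0.14 for the 365 between 100 and 300 FPKM, of -0.02 for the 5704 between 10 and 100 FPKM and of 0.05 for the 6437 between 1 and 10 FPKM. Among the members, Gapdh moved most, from 0.41 to 0.17, and it stayed higher, as did Pgk1 (0.18), Pgam1 (0.16) and Ldha (0.08). Pygb moved next most, from -0.18 to -0.38, Ldhb went from -0.59 to -0.75 and Aldoc from -0.71 to -0.88. The 22 members under 100 FPKM moved by between -0.10 (Pfkm) and 0.13 (Slc16a3).

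**Figure D4:**
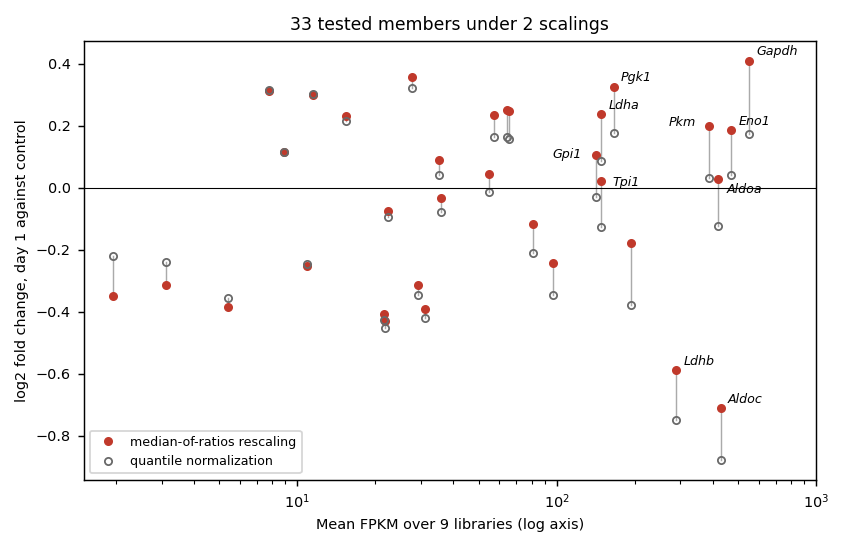
Log2 fold change of the 33 tested members on day 1 against control, by mean FPKM over the 9 libraries (log axis), with median-of-ratios rescaling (filled) and with quantile normalization (open), joined by lines. Above 100 FPKM the open points lie lower, where Gpi1, Tpi1 and Aldoa cross 0, as Slc16a1 does below it.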

How the data were processed

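Polyadenylated RNA from 9 libraries of primary mouse cortical astrocytes was sequenced, 3 for each of 3 groups. The authors deposited 1 table of FPKM per gene. The submitters' processing notes name FastQC 0.12.1, cutadapt 2.6, STAR 2.7.3a and DESeq2 with GRCm38 and mm10, without roles. The counting program, the annotation, the use of strand and the treatment of reads that match several places are not stated in the sources used here.

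Because the deposited FPKM are not counts, they were rescaled by median ratios (factors 0.976 to 1.02), and log2(FPKM + 0.1) of 12611 genes (those averaging 1 FPKM or more) was fitted over all 9 libraries, with no term but group, in limma 3.58.1 (R 4.3.3), its variance prior following the mean level. Tests were two-sided, with Benjamini-Hochberg adjusted p under 0.05 as the threshold. A fold change on this scale understates the change of low genes. FPKM values came out as whole reads, within 0.01 of a read, for 100% of the 20350 genes above 0 in some library. Gene lengths were searched over a wide range, so for genes above 0 in few libraries whole reads can come out by chance. The library totals were worked out first, and the recovered reads were used for an alternative fit with limma-voom. The scripts were tested on simulated data. Libraries of a group were compared by a chi-square test, and no pair agreed within sampling noise.

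Shares within gene families used the deposited FPKM and an exact permutation test. Promoter windows came from RefSeq (GRCm38.p6), and near-identical copies from GENCODE M21 transcripts. A gene was counted as having a word if any of its windows had it, so genes with more windows had more chances. The sequences shown are the first window listed, and Ldha has 2 windows.

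The members and the lists of other genes were chosen with earlier results of these data known. Values in every library are given for members called against control with a difference of at least 25% and for their isozyme partners. Those of Hk2, Egln3, Pygb and Ankrd37 were added after their values were seen. From each list, up to 2 risen and 2 fallen genes with the largest change and no overlap were named against control. Genes of the lists called between the days are not named. Alternatives were other pseudocounts, filters, scalings and thresholds, a fit of the 6 libraries compared, a replicate block, limma-voom, and leaving out each library. Leaving out the pair of libraries with the highest Rn45s share was chosen after seeing the data.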

Additional observations from a re-analysis of the deposited data

Results flagged for a closer look

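The effect against control differed between day 1 and day 3 for 25 of the 33 members tested, beside 56.2% of all genes. This is the comparison between the days given above (limma adjusted p under 0.05). The log2 difference, day 3 minus day 1, was positive for Aldoc (0.65), Ldhb (0.57), Epas1 (0.40), Pfkl (0.35), Slc2a1 (0.33), Slc16a3 (0.31), Pfkfb4 (0.29), Pfkm (0.25), Pdk1 (0.25), Egln1 (0.25), Pygb (0.16), Bnip3 (0.15) and Pfkp (0.14). It was negative for Gapdh (-0.40), Hif1a (-0.30), Hk2 (-0.28), Pgk1 (-0.27), Pdha1 (-0.21), Ldha (-0.21), Gys1 (-0.21), Pgam1 (-0.20), Eno1 (-0.19), Ugp2 (-0.19), Pkm (-0.17) and Gbe1 (-0.16). For Eno1, Pkm and Slc16a3 the call was lost with quantile normalization (adjusted p = 0.392, 0.183 and 0.151). The calls for Gbe1 and Slc16a3 were also lost with some single libraries left out, as given above.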

How the results depend on the processing

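With the other settings the day 1 call counts stayed within 1.5 times the reported counts. Members higher and lower numbered 14 and 13 on day 1, 0 and 1 on day 3, and 13 and 13 between the days with the replicate number as a block. Same-numbered libraries did not deviate together (correlations -0.079 to 0.111 over 9 pairs), so the numbers were not taken as pairs. Leaving out 1 library gave 13 to 15 higher and 12 to 13 lower on day 1, 0 to 1 higher and 0 to 2 lower on day 3, and 12 to 14 higher and 11 to 13 lower between the days. On day 3, limma-voom gave 1 member higher and an adjusted p under 0.01 gave 0 lower; the threshold itself accounts for the latter, and the cause of the other shifts was not tested. Log2 fold changes that turned sign, all of members without a call except Gpi1 on day 1, were as follows. With quantile normalization, day 1 against control, Gpi1 (-0.032), Aldoa (-0.12), Tpi1 (-0.13) and Slc16a1 (-0.013) turned. With quantile normalization, day 3 against control, Pfkm (-0.0098), Tpi1 (-0.0023), Gapdh (-0.037), Eno1 (0.018) and Pkm (-0.012) turned. With quantile normalization, day 3 against day 1, Gpi1 (0.095) and Tpi1 (0.12) turned. From FPKM as deposited, day 1 against control, Aldoa (-0.0037) and Tpi1 (-0.0096) turned. From FPKM as deposited, day 3 against control, Pfkm (-0.0052), Tpi1 (-0.0026) and Gapdh (-0.0050) turned. From FPKM as deposited, day 3 against day 1, Tpi1 (0.0070) and Eno2 (0.0080) turned. With a filter at 5 FPKM, day 3 against day 1, Tpi1 (0.0052) and Eno2 (0.0063) turned. Leaving out libraries, the one added pair included, turned these for day 3 against control: Hk2 (-0.0054 to 0.066), Pfkm (-0.030 to 0.027), Pfkfb3 (-0.018 to 0.055), Pfkfb4 (-0.079 to 0.018), Gapdh (-0.00056 to 0.033), Ldhb (-0.074 to 0.0017), Slc16a3 (-0.14 to 0.091) and Gys1 (-0.012 to 0.059). Leaving out libraries, the one added pair included, turned these for day 3 against day 1: Tpi1 (-0.023 to 0.0035), Eno2 (-0.063 to 0.050) and Egln3 (-0.011 to 0.077). Slc16a3 rested on 93 to 209 reads per library and Ankrd37 on 3 to 22, and their precision is limited by that depth.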
